A study of Rattus norvegicus with 3 samples.

Results

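Venous-leaning endothelial nuclei of the rat heart numbered 1373 of the 24664 nuclei examined, with 498 of 9964 in the wild-type (WT) library, 355 of 6810 in BMD and 520 of 7890 in DMD. They were chosen by their counts of unique molecular identifiers (UMIs), each of which marks 1 captured RNA molecule. A nucleus was gated as endothelial when Flt1, Cyyr1, Aqp1, Cdh5, Emcn, Ptprb and Egfl7 made up at least 0.6% of its UMIs. It was taken as venous-leaning when Unc5c, Slco2a1, Aplnr, Samd5, Pde1c, Thsd7a and Rasa4 together had at least 2 UMIs and more than the arterial genes Btnl9, Sox17, Efnb2, Dll4, Prom1, Ablim3 and Myo10. Nuclei with more than 1 UMI from lymphatic genes (Ccl21, Reln, Mmrn1), endocardial genes (Nrg1, Cgnl1, Pkhd1l1) or fibroblast genes (Dcn, Pdgfra, Bicc1) were left out. Arterial-leaning nuclei, used for comparison, were picked by the mirrored rule and numbered 419, 470 and 413 in these libraries.

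Nuclei were sorted by their DNA stain from the heart apex of 12-month-old rats, which held a portion of the septum and of both ventricles, and their RNA was sequenced. BMD rats, of Sprague Dawley background, carried an in-frame deletion of Dmd exons 45 to 47, made with CRISPR/Cas9 as a model of Becker muscular dystrophy. DMD rats carried a deletion of Dmd exon 52 as a model of Duchenne muscular dystrophy, and WT rats carried neither. There was 1 library per genotype, so a difference between genotypes cannot be told apart from one between libraries, no test between genotypes was possible, and the number of animals behind each library is not given in the sources used here. All intervals below are at 95% and cover counting error only. UMIs were summed over the members of a library and scaled to 1000000 UMIs of those members (CPM).

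Endothelial cells line all vessels, and their gene expression changes along the vascular tree from arteries through capillaries to venules and veins. Venous identity is held by the transcription factor Nr2f2 (COUP-TFII) and marked by Ephb4, the receptor of the arterial ligand ephrin-B2. Venules are also where leukocytes leave the blood, by way of adhesion molecules such as the selectins and Vcam1. Aplnr is the receptor for apelin, and Slco2a1 carries prostaglandins into the cell.

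Values given in threes are in the order WT, BMD and DMD. The members yielded 474147, 477626 and 594493 UMIs. The median member had 869.5, 1247 and 1044 UMIs, and members ranged from 516 to 3436 UMIs. Arterial-leaning nuclei were shallower in each library, with medians of 768, 1013 and 838 UMIs. A fixed minimum of 2 venous UMIs is reached more easily by a deeper nucleus, so depth moves with membership. Just inside the rule, 86 members in WT, 37 in BMD and 76 in DMD had exactly 2 venous UMIs. Just outside it, 49, 16 and 44 nuclei with 1 venous UMI were counted as close to the rule, a part of the 193, 149 and 177 with 1 venous UMI. As many arterial as venous UMIs were found in 36, 26 and 41 nuclei close to it. Scrublet, which compares each nucleus with simulated pairs, called 1.81%, 0.563% and 2.5% of members doublets, against 8.31%, 4.99% and 10.2% of all nuclei. Of the barcodes present in 2 libraries, 3 belonged to members in WT and 1 to a member in DMD.

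The genes of the rule were high in the members because they chose them, and their levels are given as a description. Aplnr (ENSRNOG00000009227) had 559 CPM (494 to 630) in WT, 299 CPM (252 to 353) in BMD and 375 CPM (328 to 428) in DMD. Slco2a1 (ENSRNOG00000009005) had 335 CPM (285 to 392) in WT, 582 CPM (516 to 655) in BMD and 552 CPM (494 to 615) in DMD. Unc5c (ENSRNOG00000029071), a netrin receptor, had 593, 471 and 412 CPM. Aplnr and Unc5c were thus highest in WT, while Slco2a1 was lowest there. In arterial-leaning nuclei the same genes had 148, 112 and 153 CPM for Aplnr, 2.89, 1.92 and 12.8 for Slco2a1, and 31.8, 28.8 and 48.6 for Unc5c. The endothelial rule genes Aqp1 and Cdh5 were lowest in BMD. Aqp1, a water channel, had 2048, 967 and 1541 CPM, and Cdh5, the cadherin of endothelial junctions, had 510, 262 and 447 CPM.

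**Figure D1:**
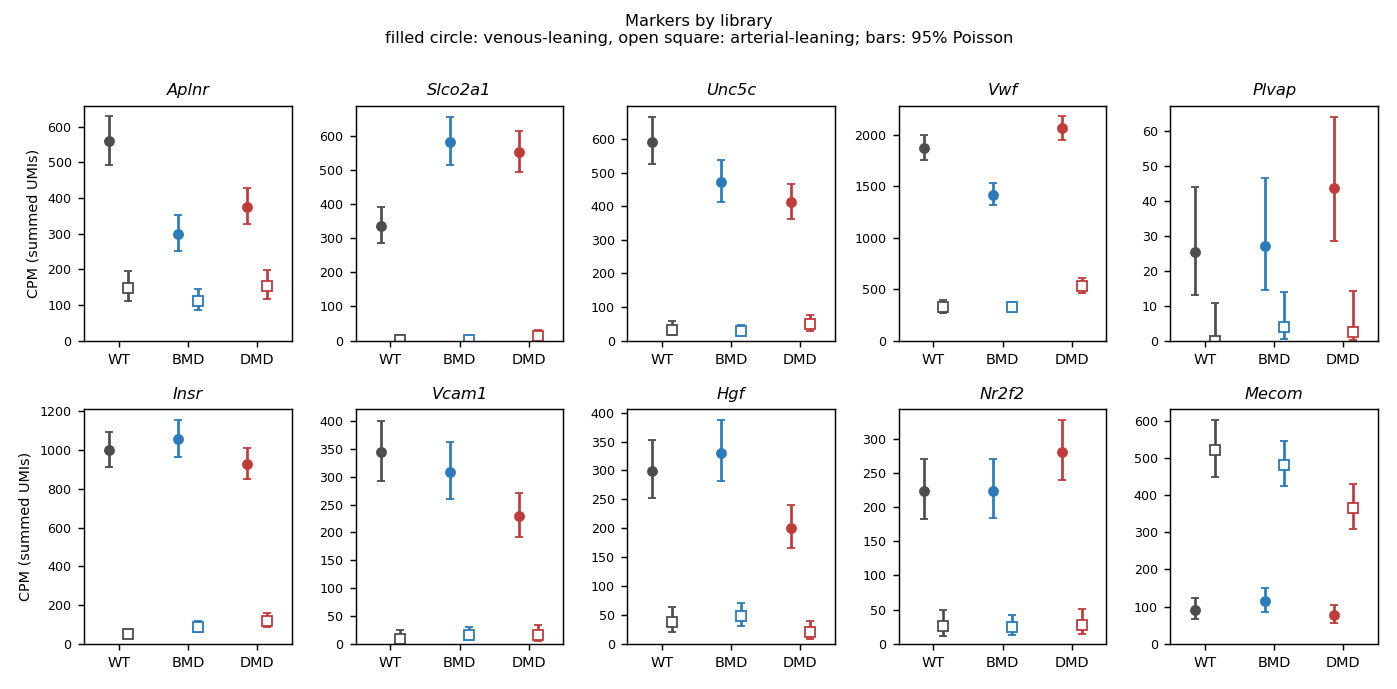
CPM of 3 rule genes, Aplnr, Slco2a1 and Unc5c, and of 7 genes outside the rule by library, with venous-leaning nuclei as filled circles, arterial-leaning nuclei as open squares and 95% Poisson intervals as bars. In each library Vwf, Insr, Vcam1, Hgf and Nr2f2 lie higher in venous-leaning nuclei and Mecom lies higher in arterial-leaning nuclei, while Plvap stays below 44 CPM.

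Markers that the rule did not name were compared with the arterial-leaning nuclei of the same library. Both sets were cut from the same cells by opposite rules, so the contrast is a description and no test was made. Vwf (ENSRNOG00000019689), von Willebrand factor, had 1875, 1419.5 and 2066 CPM in members, against 324, 325 and 529 CPM in arterial-leaning nuclei. The log2 ratio of venous-leaning over arterial-leaning nuclei for Vwf was 2.53, 2.13 and 1.97 in WT, BMD and DMD. Nr2f2 had 224, 224 and 281 CPM against 26.0, 25 and 28.1, and Ephb4 had 310, 301.5 and 330 CPM against 165, 173 and 207. Of the 13 measured genes of a venous list outside the rule, 12 were above the arterial-leaning level in all 3 libraries. Of the 15 measured genes of an arterial list, 12 were below it in all 3. Across all 7334 genes outside the rule that reached 50 UMIs in this comparison, 23.6% were above and 21.1% below in all 3 libraries, which is the background for these counts.

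Plvap (ENSRNOG00000017676), which forms the diaphragms of fenestrae, is named among the markers of these cells but was sparse. It had 12, 13 and 26 UMIs in members, or 25.3, 27.2 and 43.7 CPM, and the 3 intervals overlapped. A Plvap UMI was found in 2.41%, 2.54% and 3.46% of members, and in 0%, 0.426% and 0.242% of arterial-leaning nuclei. With every nucleus thinned to 500 UMIs the shares of members were 1.41%, 1.13% and 1.92%. The data thus bear out Vwf as a common marker of the members, and Plvap only for a few of them.

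The 10 genes that stood highest over the arterial-leaning nuclei included Vwf and Nr2f2. Vcam1, the ligand of leukocyte integrins, had 344, 308 and 229 CPM against 8.68, 15.4 and 15.3 CPM. Insr (ENSRNOG00000029986), the insulin receptor, had 1002, 1057 and 929 CPM against 49.2, 86.5 and 118 CPM, and its log2 ratio was 4.35 in WT, 3.61 in BMD and 2.98 in DMD. Hgf, hepatocyte growth factor, had 299.5, 331 and 200.2 CPM against 37.6, 48.1 and 20.4 CPM. Plxdc2, Abi3bp, Prss23 and Zbtb7c also belonged to this group, with 719, 515 and 742 CPM for Plxdc2, the most abundant of them. At the other end were Nox4, an NADPH oxidase, Mecom, a transcription factor of arterial endothelium, Unc5b, a netrin receptor of arteries, Rbp7 and Arl15. Mecom had 90.7, 115 and 77.4 CPM in members against 521, 481 and 365.5 in arterial-leaning nuclei, and Arl15 had 922, 1616 and 932 against 4680 CPM in WT, 5059 in BMD and 3488 in DMD.

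Several anticoagulant and vasoactive receptor genes were higher in members than in arterial-leaning nuclei. Thbd, thrombomodulin, had 675, 559 and 659 CPM in members against 202.5, 181 and 219.8 CPM in arterial-leaning nuclei. Calcrl, the receptor of adrenomedullin and CGRP, had 2033, 2782 and 1934 CPM against 691, 850 and 608. Ednrb, an endothelin receptor, had 344, 285 and 384 CPM against 142, 158 and 143. Of the measured genes, 7 of 11 on a haemostasis list, 7 of 12 on a vasoactive list and 8 of 11 on a list of leukocyte adhesion and chemokine genes were above the arterial-leaning level in all 3 libraries, and 1, 1 and 2 were below it. Of all 7334 genes compared, 23.6% were above and 21.05% below in all 3. Apln, the ligand of Aplnr, had 3, 3 and 5 UMIs in members and was too sparse to compare. Of the 4 measured genes of an apelin signalling list, none was above or below in all 3.

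The members also carried endocardial genes. Of 4 measured endocardial markers outside the rule, a list that includes Vwf and Plvap, all 4 were above the arterial-leaning level in all 3 libraries. Among all 7334 genes compared, 23.6% were above in all 3. Hmcn1, an extracellular matrix protein, had 2274, 2217 and 1923 CPM in members, 758, 731 and 555 in arterial-leaning nuclei, and 3877, 2964 and 3576 in the 111, 180 and 192 nuclei over the endocardial limit. Npr3, the natriuretic peptide clearance receptor of endocardium, had only 3, 6 and 6 UMIs in members, or 6.33, 12.6 and 10.1 CPM, against 319, 139 and 209 CPM in endocardial-gated nuclei. The endocardial-gated nuclei had Vwf at 1971, 1408 and 2715 CPM and Slco2a1 at 269.9, 340.5 and 423 CPM, so these genes do not separate veins from endocardium. Prox1, the regulator of lymphatic identity, was at 2, 4 and 5 UMIs in members.

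An Aplnr UMI without a Slco2a1 UMI was found in 30.3% (26.3 to 34.6) of WT members, 18.6% (14.7 to 23.04) in BMD and 23.1% (19.5 to 26.9) in DMD. A Slco2a1 UMI without an Aplnr UMI was found in 10.2% (7.72 to 13.2) of WT members, 23.1% (18.8 to 27.8) in BMD and 25.2% (21.5 to 29.2) in DMD. Both were found in 6.63%, 8.17% and 7.50%, and neither in 52.8%, 50.1% and 44.2%. Both genes belong to the rule, so these shares describe the members that it chose. With each nucleus thinned to 500 UMIs, an Aplnr UMI was found in 23.3%, 14.1% and 16.2% of members and a Slco2a1 UMI in 10.8%, 16.6% and 19.6%, in the same order as before.

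**Figure D2:**
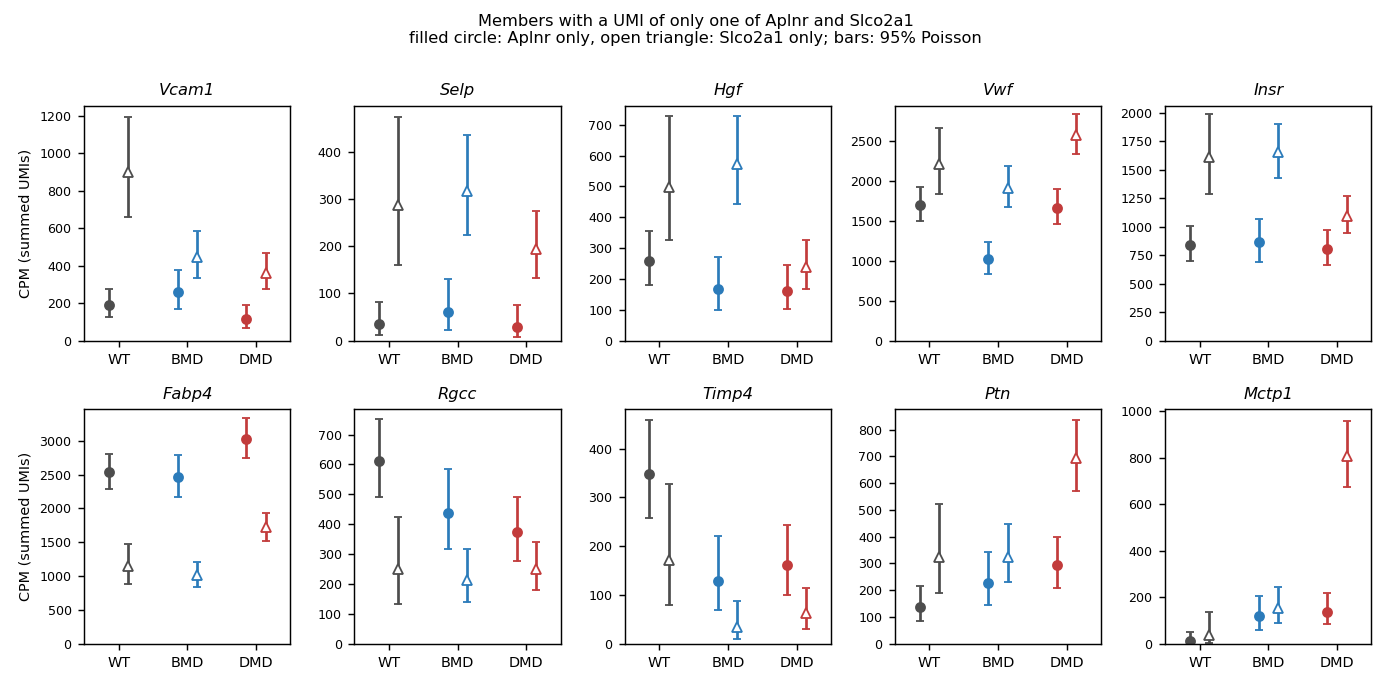
CPM of 10 genes in members with an Aplnr UMI only (filled circles; 151, 66 and 120 nuclei in WT, BMD and DMD) and with a Slco2a1 UMI only (open triangles; 51, 82 and 131 nuclei), with 95% Poisson intervals. Adhesion genes such as Selp lie higher in Slco2a1-only members and Fabp4, Rgcc and Timp4 lie higher in Aplnr-only members in each library, and Mctp1 reaches its highest level in Slco2a1-only members of DMD.

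The members with only one of these genes also differed in genes the rule had not used. Selp, P-selectin, had 287, 317 and 194 CPM in Slco2a1-only members, against 34.7, 59.5 and 29.3 CPM in Aplnr-only members. Vcam1 had 899.8, 445 and 363 CPM against 188, 258 and 117, and Vwf had 2221, 1917 and 2580 CPM against 1702, 1021 and 1668. Hgf, Insr and Il1r1 were likewise higher in Slco2a1-only members of all 3 libraries. Fabp4, Rgcc and Timp4 showed the opposite order. Fabp4, a fatty acid binding protein, had 2535, 2458 and 3029 CPM in Aplnr-only members against 1149, 1009.9 and 1722 in Slco2a1-only members. Rgcc, a cell cycle regulator high in capillary endothelium, had 611, 436 and 373 CPM against 249, 214 and 250.5, and Timp4, a metalloproteinase inhibitor, had 347, 129 and 161 CPM against 172, 34.2 and 62.6. The intervals of the 2 subsets overlapped for Timp4 in all 3 libraries, for Hgf in WT and DMD, and for Insr and Rgcc in DMD. They also overlapped for Vwf in WT and for Vcam1 in BMD. The absence of a UMI in a shallow nucleus does not show that the gene was silent, so these are values of summed nuclei and do not define cell types.

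A few genes were gathered in a handful of members. Dkk2, a secreted modulator of Wnt signalling, had 20, 24 and 11 UMIs, all of them in 3, 4 and 2 nuclei, with up to 16 in 1 nucleus. Its variance over members was 11.8, 11.7 and 9.16 times that of Poisson counting, whereas the median over all tested genes was 1.07, 1.12 and 1.10 times. Igfbp5, an IGF binding protein, reached 8.67, 5.90 and 4.35 times and was found in 90, 60 and 106 members. Arl15, among the 5 genes lowest in members relative to arterial-leaning nuclei, reached 3.24, 10.6 and 4.67 times, with 20.5% of its BMD UMIs in 5 nuclei. Zeb2, Sulf1, Tmsb4x, Mt-co2 and Mt-co3 completed the 8 genes of largest excess by the lowest of their 3 libraries, between 3.04 and 9.67 times.

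Members also differed in Insr by the number of their venous UMIs. Insr and Arl15 were named for their ratios between members and arterial-leaning nuclei, so their levels here are a description. In the 174, 197 and 127 WT members with 2 to 3, 4 to 6 and 7 or more venous UMIs, Insr had 773, 853 and 1389 CPM. In BMD it had 624, 900 and 1318 CPM in 88, 122 and 145 members, and in DMD 599.9, 827 and 1232 CPM in 179, 176 and 165 members. Arl15 had 944, 1023 and 779.8 CPM over these groups in WT, 2293, 1779 and 1263 in BMD and 1036, 959.7 and 839 in DMD. The median depth rose along the same groups, from 753.5 to 1141 UMIs in WT, 895 to 1557 in BMD and 875 to 1339 in DMD, and its part in these levels was not tested.

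Venous-leaning nuclei had a share of all nuclei of 4.998% (4.58 to 5.44) in the WT library, 5.21% (4.70 to 5.77) in that of BMD and 6.59% (6.05 to 7.16) in that of DMD. BMD minus WT came to 0.215 percentage points (-0.457 to 0.904), DMD minus WT to 1.59 points (0.903 to 2.29) and DMD minus BMD to 1.38 points (0.614 to 2.14). With an endothelial gate of 1%, the differences were -0.397 points (-0.897 to 0.119) for BMD minus WT, 0.183 (-0.326 to 0.703) for DMD minus WT and 0.5801 (0.0333 to 1.12) for DMD minus BMD. BMD minus WT was -0.399 points (-1.10 to 0.321) without nuclei over 5% mitochondrial UMIs, 1.34 (0.5703 to 2.13) with no limit on the other gates and 2.12 (1.40 to 2.87) over barcodes with at least 1000 UMIs. DMD minus BMD over those barcodes was 0.774 points (-0.112 to 1.66). Of endothelial-gated nuclei, which numbered 1399, 1264 and 1659, members made up 35.6% (33.1 to 38.2) in WT, 28.1% (25.6 to 30.6) in BMD and 31.3% (29.1 to 33.6) in DMD. Against WT this share was lower by 7.51 points in BMD, with a difference of -7.51 (-11.0 to -3.97), and it differed by -4.25 points in DMD (-7.61 to -0.899). The DMD difference was -1.65 points (-4.72 to 1.41) with the rule applied at 500 UMIs per nucleus and -2.69 (-5.89 to 0.506) with at least 3 venous UMIs, so these intervals included 0. The share of DMD minus that of BMD was 3.26 points (-0.0939 to 6.57). This difference was 6.48 (2.86 to 10.08) with no limit on other gates and 3.89 (0.454 to 7.28) without Scrublet doublets. It was 3.70 (0.331 to 7.03) with aggregate counts and 3.33 (0.257 to 6.35) with the rule applied at 500 UMIs per nucleus. Under the other alternatives run for this share its interval included 0. The 2 denominators thus gave different orders of the libraries, since 14.04%, 18.6% and 21.03% of all nuclei passed the endothelial gate. The arterial-leaning share of endothelial-gated nuclei was 29.95%, 37.2% and 24.9%. Without the lymphatic, endocardial and fibroblast limits the shares of endothelial-gated nuclei became 43.5%, 40.1% and 46.6%, and the difference of DMD from WT turned to 3.13 points (-0.405 to 6.66), while that of BMD from WT was -3.35 (-7.08 to 0.403). The order of these shares between WT and DMD therefore depends on nuclei that carry venous genes together with endocardial or fibroblast genes. Fewer nuclei of this kind and less RNA of the gate genes per nucleus cannot be told apart here.

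**Figure D3:**
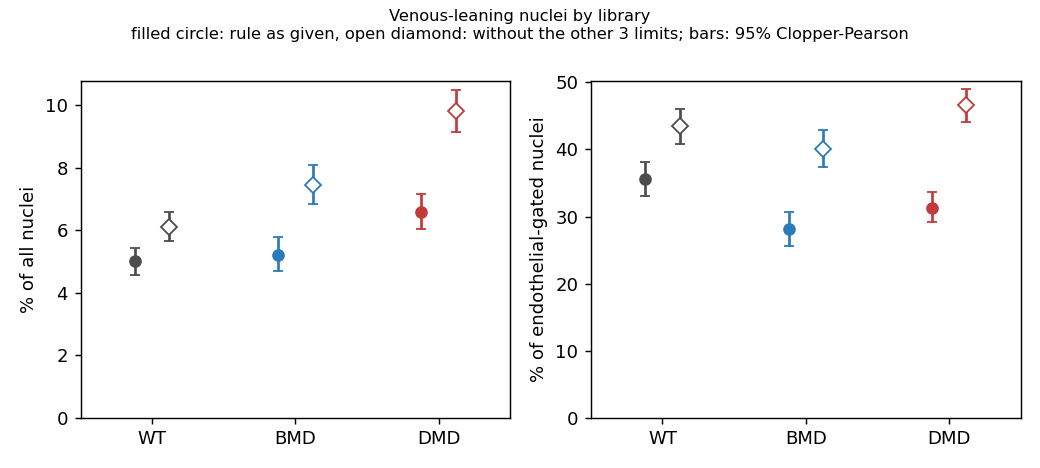
Percent of all nuclei and of endothelial-gated nuclei that were venous-leaning in each library under the rule as given (filled circles) and without the lymphatic, endocardial and fibroblast limits (open diamonds), with 95% Clopper-Pearson intervals. The share of endothelial-gated nuclei in DMD lies below WT under the rule (31.3% against 35.6%) and above it without the limits (46.6% against 43.5%).

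Levels of single genes were then compared between the genotypes over the 5607 genes outside the rule with at least 50 UMIs in members. A gene was counted as past 2-fold when its ratio of CPM plus 10 was at least 2 in either direction. BMD over WT had 69 genes higher (1.23%) and 87 lower (1.55%), DMD over WT had 60 higher (1.07%) and 25 lower (0.446%), and DMD over BMD had 86 higher (1.53%) and 44 lower (0.785%). The median log2 ratio over all tested genes was -0.03, -0.01 and 0.01 in these comparisons. Both comparisons with WT share the WT library. The ratios printed below for single genes are plain log2 ratios of CPM with intervals from the 2 sums of UMIs.

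Mctp1 (ENSRNOG00000013282) was first when genes were ranked by the lower bound nearest 0 of the BMD and DMD ratios over WT, although Nppa had a higher ratio in BMD. It encodes a membrane protein with calcium-binding C2 domains. It had 15 UMIs in WT members, 99 in BMD and 250 in DMD, or 31.6 CPM (17.7 to 52.2), 207 CPM (169 to 252) and 420.5 CPM (370 to 476). BMD over WT gave a log2 ratio of 2.71 (1.92 to 3.6), and DMD over WT gave 3.73 (2.98 to 4.59). The 3 intervals did not overlap, and DMD over BMD was 1.02 (0.68 to 1.37). In arterial-leaning nuclei Mctp1 had 26.0, 28.8 and 58.8 CPM, and in endocardial-gated nuclei 40.9, 395 and 454 CPM. With members that carried no endocardial UMI, 392, 262 and 371 nuclei, the log2 ratio of CPM plus 10 was 2.79 in BMD and 3.76 in DMD, against 2.38 and 3.37 with all members.

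Mctp1 was not spread evenly over the members. Its UMIs lay in 10 WT members, 27 BMD members and 79 DMD members, or 2.01%, 7.61% and 15.2%, and 5 nuclei held 66.7% of them in WT, 56.6% in BMD and 22.0% in DMD. Without these 5 nuclei its level was 10.69, 91.8 and 333 CPM. At least 3 Mctp1 UMIs were found in 1 WT, 12 BMD and 32 DMD members. In those members of BMD and DMD, Ptn had 790 and 986 CPM, on 15 and 48 UMIs, against 222 and 351 CPM in members with no Mctp1 UMI. Slco2a1 had 737 and 944 CPM, on 14 and 46 UMIs, against 589 and 492, so the BMD values rest on few UMIs. Aplnr had 105 and 103 CPM there, against 281 and 422.5 CPM in members with no Mctp1 UMI, on 2 and 5 UMIs. Members with 1 or 2 Mctp1 UMIs did not lie between these groups throughout. Aplnr had 863.5 CPM there in BMD and 197 CPM in DMD, Slco2a1 had 288 and 734 CPM, and Ptn had 384 and 340.0 CPM.

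Ptn (ENSRNOG00000011946), the secreted growth factor pleiotrophin, followed the same order. It had 120 CPM (91.0 to 156) in WT, 251 (208 to 300.4) in BMD and 402 (353 to 456) in DMD, and BMD over WT had a log2 ratio of 1.06 (0.60 to 1.54), DMD over WT one of 1.74 (1.32 to 2.19). It had 17.4, 46.1 and 56.2 CPM in arterial-leaning nuclei and 196, 263 and 500.3 CPM in endocardial-gated nuclei, in the same order, and was found in 9.84%, 20% and 28.5% of members. The intervals of the 3 libraries did not overlap.

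**Figure D4:**
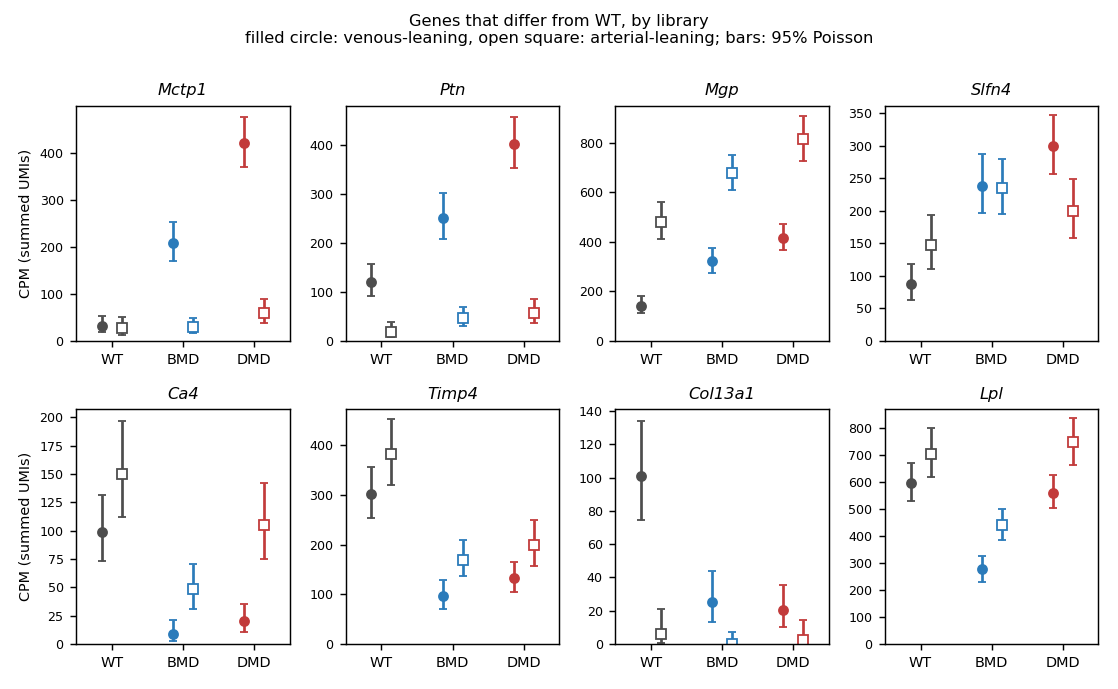
CPM of 8 genes by library in venous-leaning (filled circles) and arterial-leaning (open squares) nuclei, with 95% Poisson intervals. Mctp1, Ptn, Mgp and Slfn4 lie above WT in venous-leaning nuclei of both mutants, Ca4, Timp4 and Col13a1 lie below it, and Lpl is low in BMD.

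Mgp, Map1b, Samd4a, Slfn4, Nppa and Xirp2 were the other genes highest in both mutants. Mgp, matrix Gla protein, an inhibitor of calcification, had 141, 320.3 and 415.5 CPM in members and 480.1, 677 and 813 CPM in arterial-leaning nuclei, so it was higher in both mutants in each kind of nucleus. Map1b, a microtubule-associated protein, had 65.4, 159 and 172 CPM, and Samd4a, a regulator of translation, had 162, 333 and 352 CPM. Samd4a had 1267, 1402 and 1780 CPM in cardiomyocyte-gated nuclei. In fibroblast-gated nuclei Map1b had 379, 579 and 572 CPM and Mgp had 2481, 2900 and 3977 CPM. A part of RNA from such cells in the members' levels of these genes was not tested. Slfn4, a gene of the Schlafen family, had 86.5, 239 and 299.4 CPM, but 51.7% of its DMD UMIs came from 5 nuclei, with 32 in 1 nucleus. Nppa, atrial natriuretic peptide, and Xirp2, a protein of the cardiomyocyte intercalated disc, had 3, 41 and 40 UMIs and 6, 49 and 35 UMIs. Both are genes of cardiomyocytes.

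The 10 listed cardiomyocyte markers summed to 993, 1469.8 and 1277 CPM in members, with Ryr2 the most abundant and none at 0. In arterial-leaning nuclei they summed to 1197, 1919 and 1633 CPM, and in barcodes with at most 50 UMIs, which stand for free RNA, to 14795, 20373 and 12989 CPM. From these sums, free RNA was estimated at 6.71%, 7.21% and 9.83% of the members' UMIs. Nppa is one of the markers that set this estimate, so its level after subtraction says nothing more. After subtraction the log2 ratios of CPM plus 10 over WT were 2.31 in BMD and 1.91 in DMD for Xirp2, and 2.62 and 3.65 for Mctp1. In the 194, 60 and 133 members without a cardiomyocyte marker UMI, the same ratio of Mctp1 was 1.44 in BMD and 2.16 in DMD, that of Ptn 0.89 and 1.32.

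The 8 genes lowest in both mutants included Ca4 and Timp4. Ca4 (ENSRNOG00000002916), the carbonic anhydrase of the capillary lumen, had 47 UMIs in WT members, 4 in BMD and 12 in DMD, or 99.1 CPM (72.8 to 132), 8.38 CPM (2.28 to 21.4) and 20.2 CPM (10.4 to 35.3), with both mutant intervals below that of WT. The log2 ratio was -3.56 for BMD over WT (-5.50 to -2.11) and -2.30 for DMD over WT (-3.35 to -1.36). In arterial-leaning nuclei it had 150.4, 48.1 and 105 CPM, with log2 ratios of -1.65 and -0.52. Among Aplnr-only members Ca4 had 16, 0 and 5 UMIs, or 111 CPM (63.5 to 180), 0 CPM (0 to 36.6) and 36.6 CPM (11.9 to 85.4). Within that subset the BMD interval lay below that of WT, while the DMD interval overlapped it.

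Timp4 had 302 CPM (254 to 355) in WT, 96.3 (70.5 to 129) in BMD and 133 (105 to 166) in DMD. Its log2 ratios were -1.65 in BMD and -1.18 in DMD, and in arterial-leaning nuclei -1.17 and -0.94, from 382 CPM in WT. Col13a1, a transmembrane collagen, had 101, 25.1 and 20.2 CPM in members and at most 5.78 CPM in arterial-leaning nuclei. Stxbp6, a binding partner of SNARE proteins and the most abundant of these genes, had 1926, 1147 and 1134 CPM, with log2 ratios of -0.75 and -0.76, and its intervals in the mutants lay below that of WT. Fmn1, a formin, Cyp4b1, a cytochrome P450, Mtmr9 and Fam102b made up the rest, with log2 ratios between -1.67 and -1.20 in BMD and between -1.87 and -0.95 in DMD.

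Of 9 tested genes of a capillary list, 4 were lower past 2-fold in BMD (Fabp5, Lpl, Tcf15 and Timp4) and 1 in DMD (Timp4), and none was higher. Over all genes tested, 1.55% were lower in BMD over WT and 0.446% in DMD over WT. The median log2 ratio of this list was -0.96 in BMD and -0.26 in DMD. Lpl, lipoprotein lipase, had 599 CPM (531 to 673) in WT, 276 (231 to 328) in BMD and 562 (503 to 625) in DMD, so only BMD stood apart. Fabp5 had 133, 46.1 and 82.4 CPM, and Tcf15, a transcription factor of capillary fatty acid uptake, had 97.0, 35.6 and 53.8 CPM. Kdr, the main receptor for VEGF, had 190, 188 and 225 CPM with overlapping intervals. The list summed to 5302, 3836 and 4769 CPM in members against 4714, 3628 and 4976 in arterial-leaning nuclei, with Fabp4 its most abundant gene. Of 11 genes compared between these nuclei, 6 were lower in members in all 3 libraries and 3 were higher. Among all 7334 genes compared, 21.05% were lower and 23.6% higher in all 3.

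Of the venous genes outside the rule, 6 lay above and 7 below their WT level in BMD. Over the 13 tested venous genes the median log2 ratio was -0.04 in BMD and 0.09 in DMD. Past 2-fold, 1 gene was higher in BMD over WT, against 1.23% of all genes tested. That gene was Sele, E-selectin, with 63.3 CPM (42.7 to 90.3) in WT, 142 (111 to 180) in BMD and 67.3 (48.1 to 91.6) in DMD. Selp had 84.4, 165 and 80.7 CPM, with a log2 ratio of 0.97 (0.41 to 1.56) in BMD. Vcam1 and Nrp2, a neuropilin of veins and lymphatics, were lowest in DMD, with log2 ratios over WT of -0.59 (-0.93 to -0.25) and -0.70 (-0.96 to -0.44). The log2 ratio of Vwf was -0.40 for BMD over WT (-0.55 to -0.26) and 0.14 for DMD over WT (0.01 to 0.27).

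Several genes induced by interferon, Igtp and Irgm among them, were highest in BMD. Igtp (ENSRNOG00000027008), an immunity-related GTPase, had 54 UMIs in WT members, 226 in BMD and 48 in DMD, or 114 CPM (85.6 to 149), 473 CPM (413.5 to 539) and 80.7 CPM (59.5 to 107). Its log2 ratio was 2.06 for BMD over WT (1.62 to 2.51), -0.50 for DMD over WT (-1.09 to 0.09) and -2.55 for DMD over BMD (-3.03 to -2.10). An Igtp UMI was found in 10.4%, 40.0% and 7.50% of members. Igtp was also high in arterial-leaning nuclei of BMD, at 66.5, 392 and 115 CPM, so it was not a trait of venous-leaning nuclei alone.

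Irgm (ENSRNOG00000031138), of the same GTPase family, had 29.5, 121 and 32.0 CPM, and Nlrc5, the activator of MHC class I genes, had 61.2, 195 and 45.4 CPM. Mx2, an antiviral GTPase, had 25.3, 60.7 and 23.6 CPM in members, with the intervals of WT and BMD overlapping, and 54.95, 48.1 and 51.1 CPM in arterial-leaning nuclei, where BMD did not stand apart. Of 11 tested genes of a list for antigen presentation and interferon response, 4 were higher past 2-fold in BMD over WT (Tap1, Mx2, Gbp2 and Nlrc5), none was lower, and none passed 2-fold in DMD over WT. Over all genes tested, 1.23% were higher in BMD over WT. The list does not hold Igtp or Irgm, and it summed to 2569, 3021 and 3018 CPM, so that BMD and DMD had like sums. The log2 ratio of CPM plus 10 of Gbp2 for BMD over WT was 1.02, and it turned to -0.03 in members without cardiomyocyte UMIs. That of Nlrc5 was 1.52 and fell to 0.61 under the weakest alternative, short of 2-fold, while that of Tap1 stayed at 1.08 or more. The median log2 ratio of this list was 0.51 for BMD over WT, -0.07 for DMD over WT and -0.97 for DMD over BMD. B2m, the light chain of MHC class I and the most abundant gene of the list, had 1567, 1520.0 and 1711 CPM with log2 ratios over WT of -0.04 and 0.13. For DMD over BMD, 3 of the 11 list genes lay above 0 and 8 below, with 1 higher and 4 lower past 2-fold. Over all genes tested, 1.53% were higher and 0.785% lower in that comparison. The 1 higher gene was Ifi27, with 367, 329 and 680 CPM and a log2 ratio for DMD over BMD of 1.05 (0.78 to 1.32).

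**Figure D5:**
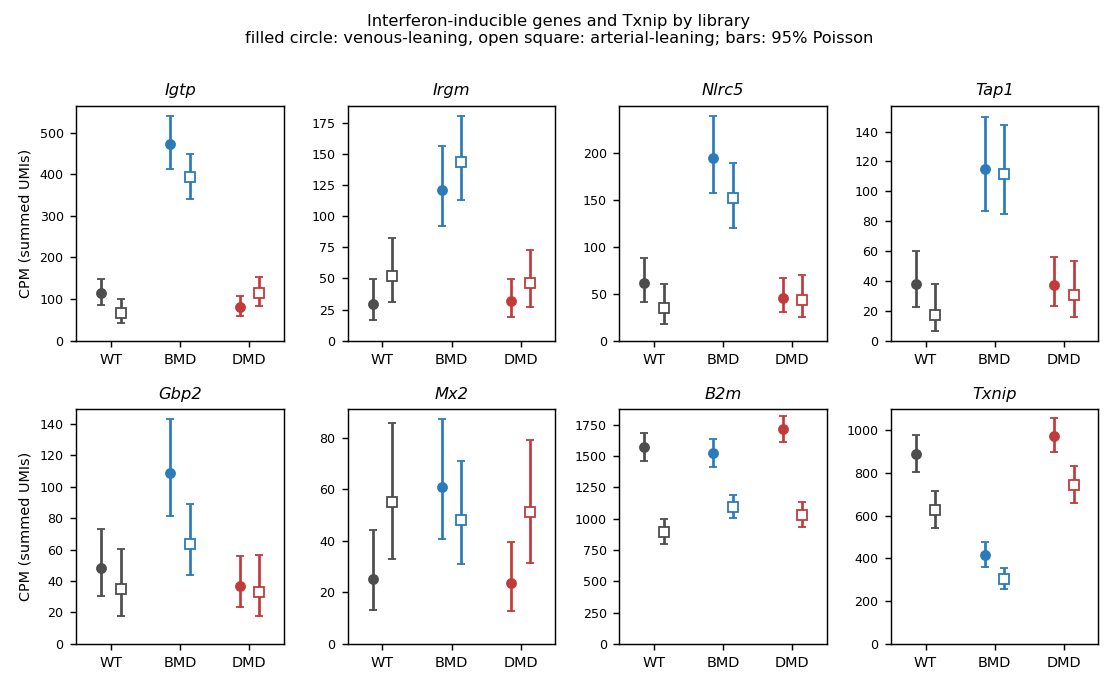
CPM of 7 interferon-related genes and of Txnip by library in venous-leaning (filled circles) and arterial-leaning (open squares) nuclei, with 95% Poisson intervals. Igtp, Irgm, Nlrc5, Tap1 and Gbp2 are highest in BMD in each kind of nucleus, Mx2 is highest in BMD in venous-leaning nuclei, B2m is similar in the 3 libraries, and Txnip is lowest in BMD.

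The promoters of these genes are shown because they hold the letters that interferon-activated factors are known to bind. These are the GAS element TTCNNNGAA and the ISRE, searched here as GAAANNGAAA or its reverse complement TTTCNNTTTC. Both strands were covered, and the 2 motifs did not overlap in the sequences shown. Capitals mark the matches. Sequences are from RefSeq on build GRCr8, which is not the build of the counts, and each ends before the gene's start. Igtp at chr10:42874908-42874978 (+ strand) and Irgm at chr10:33742579-33742648 (- strand) hold a GAS match followed after 2 bases by an ISRE match, while Gbp2 at chr2:234005671-234005726 (+ strand) and Tap1 at chr20:4668630-4668689 (- strand) hold an ISRE match alone.
Igtp: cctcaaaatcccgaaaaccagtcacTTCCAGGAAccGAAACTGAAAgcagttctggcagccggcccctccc
Irgm: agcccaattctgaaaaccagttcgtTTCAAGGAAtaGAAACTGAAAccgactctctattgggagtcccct
Gbp2: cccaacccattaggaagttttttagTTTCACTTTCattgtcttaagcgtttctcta
Tap1: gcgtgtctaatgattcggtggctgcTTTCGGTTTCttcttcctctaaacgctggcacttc

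The GAS match of Igtp began 114 bases and its ISRE match 103 bases before the start, and those of Irgm began 45 and 34 bases before it. Of the 13 genes looked up, Igtp, Irgm and the 11 tested list genes, 10 had a promoter window of 300 bases, which ran from 250 bases before to 50 after the start. An ISRE match was found in 7 of these 10 windows and a GAS match in 4, against 3.92% and 8.87% of all 33469 promoter windows, and both in 0.514% of all. Most of these genes came from a list for antigen presentation and interferon response, so this excess follows from their choice and is not a result of these data. ISRE matches were also found in B2m and Ifi27, neither of which was higher in BMD than in WT. A match is not evidence of binding in these nuclei.

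A further group was lower in BMD than in both other libraries. Txnip, an inhibitor of thioredoxin that responds to glucose and glucocorticoids, had 888 CPM (805 to 977) in WT, 417 (361 to 479) in BMD and 974 (896 to 1057) in DMD. Ddit4 had 133, 44.0 and 136 CPM and Tsc22d3 had 78.0, 29.3 and 89.2 CPM, both of them genes induced by glucocorticoids. Of 7 tested genes of a glucocorticoid list, these 3 were lower past 2-fold in BMD over WT, and Fkbp5 was higher past 2-fold in DMD over WT, with 48.5, 100.5 and 123 CPM. Over all genes tested, 1.55% were lower in BMD over WT and 1.07% were higher in DMD over WT. Txnip in arterial-leaning nuclei had 625, 302 and 741 CPM, in the same order. Among junction and transporter genes, Abcg2, an efflux pump, had 56.9, 12.6 and 42.1 CPM.

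The genes highest in DMD over BMD included calprotectin genes of neutrophils. S100a9 had 9, 11 and 94 UMIs in members and S100a8 had 3, 6 and 47 UMIs. In DMD, S100a9 had 158 CPM in members, 235 in arterial-leaning nuclei, 46.1 in cardiomyocyte-gated nuclei and 92.9 in fibroblast-gated nuclei. Of its UMIs in DMD members, 38.3% lay in 5 nuclei, with 18 in 1 nucleus. After free RNA was subtracted, the log2 ratios of CPM plus 10 of S100a8 and S100a9 for DMD over BMD were 0. The subtraction stopped at 0 and left nothing of these genes in either library, so this does not show equal levels. Gsn, gelsolin, had 207, 136 and 367 CPM, and its log2 ratio of CPM plus 10 for DMD over BMD turned from 1.37 to -2.62 after the subtraction. Nothing of Gsn was left in DMD then, so this ratio was also set by the floor. The 10 measured fibroblast markers, of which Col3a1 was the most abundant, summed to 283, 188 and 515 CPM in members and 315, 292 and 659 CPM in arterial-leaning nuclei. Ifi27l2b had 27.4, 25.1 and 128 CPM, and Gpx1, a glutathione peroxidase, had 61.2, 23.03 and 92.5 CPM. At the other end Rgs16, a regulator of G protein signalling, had 44.3, 98.4 and 18.5 CPM, and Mpped2 had 19.0, 75.4 and 18.5 CPM.

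Over all 5607 genes, between 0.446% and 1.55% passed 2-fold in a given direction of a comparison. Of 9 tested Notch genes, 1 was higher past 2-fold in DMD over WT and in DMD over BMD, Hes1, a Notch target, with 31.6, 29.3 and 84.1 CPM and log2 ratios of 1.41 (0.55 to 2.35) and 1.52 (0.64 to 2.49). None of 9 VEGF and angiopoietin genes and none of 14 basement membrane genes passed 2-fold in any comparison. In the list of TGF-beta and BMP signalling, Bmp6 and Id3, a target of BMP signalling, passed 2-fold in DMD over BMD, with 103, 87.9 and 190 CPM and 228, 153 and 333 CPM. Cell division genes were too low to compare, with none of 12 tested.

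Dmd (ENSRNOG00000046366), the dystrophin gene, had 658 CPM (587 to 735) in WT, 934 (849 to 1025) in BMD and 794 (724 to 869) in DMD. The deletions remove only a few exons, so this sum does not check the labels. The log2 ratio of CPM plus 10 over WT moved from 0.50 to 2.49 in BMD and from 0.27 to 2.5 in DMD when free RNA was subtracted. Subtracted levels were not allowed below 0. A ratio close to that floor depends on the added 10 CPM, so this move is not a measure of a rise in Dmd. Cardiomyocyte-gated nuclei had 16445, 21453 and 19796 CPM of Dmd. Utrn (ENSRNOG00000011058), the dystrophin homologue utrophin, had 1987, 2190.0 and 1931 CPM in members, with log2 ratios over WT of 0.14 (0.01 to 0.27) and -0.04 (-0.17 to 0.08).

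The 13 protein-coding transcripts of the mitochondrial genome were more abundant in members than in arterial-leaning nuclei. They summed to 23022, 26267 and 31378 CPM against 13423, 11825 and 20448 CPM, and 12 of 13 were above in all 3 libraries. Among all 7334 genes compared, 23.6% were above in all 3. In the free RNA they summed to 32286, 54082 and 85810 CPM. Members with more than 5% mitochondrial UMIs made up 8.03%, 18.3% and 22.9% of members. The median log2 ratio of these genes for DMD over WT was 0.42, and it turned to -0.15 when those nuclei were removed.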

How the data were processed

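The authors sequenced 10x Genomics 3′ v3.1 libraries of heart nuclei and counted UMIs per gene with Cell Ranger on build rn6, per the labels and file headers. The study's methods also name the 3′ v3.1 kit, while its results name a 5′ technology, and the conflict was not settled here. The deposited values are raw counts for all barcodes. The file for WT was an aggregate of 3 libraries, in which the authors thinned BMD to 76.1% and DMD to 92.9% of their own UMIs. BMD and DMD were taken from their own files. WT was taken as the third library of the aggregate by elimination, since the barcodes of the other two matched BMD and DMD and no header names it, so every WT value rests on this assignment. The headers name Cell Ranger 6.0.1 for the aggregate and 4 for the others. A few symbols, Ttn and Pecam1 among them, were not found in the files and are not analysed here. A gene of the interferon list is not reported here, and the list's values were computed without it.

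The libraries held 21609238, 21142346 and 19215994 UMIs in WT, BMD and DMD. The barcodes with most UMIs were taken as nuclei, without a doublet or mitochondrial filter. Gate sums were computed per nucleus, and counts of members were summed per library. Intervals at 95% were exact Poisson for sums, exact conditional for ratios, Clopper-Pearson for shares and Newcombe for differences of shares (scipy 1.17.1). With 1 library per genotype no p-value was computed. Members and gene lists were chosen with earlier results of these data known. The genes named were the 8 highest and 8 lowest by the bound nearest 0 for BMD and DMD over WT jointly, the 5 and 5 for DMD over BMD, the 10 and 5 for venous-leaning over arterial-leaning nuclei, the 8 of largest variance over Poisson, the genes of the rule, and up to 4 per list. The subsets by Aplnr, Slco2a1 and Mctp1 and the genes shown in them were chosen after the values were seen. The ranking was run on simulated data with known changes for BMD and DMD against WT, in which the 16 genes ranked first and last were all changed ones. The changed genes there were well covered, were changed alike in both mutants and had Poisson noise only. That run therefore checked the calculation and not the ranking of sparse or unevenly spread genes. Alternatives used Scrublet (scanpy 1.11.5) and TMM (edgeR 4.0.16).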

Additional observations from a re-analysis of the deposited data

Results flagged for a closer look

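Nuclei that passed the endothelial gate and had at least 2 venous UMIs and more venous than arterial UMIs, but exceeded the lymphatic, endocardial or fibroblast limit, are not among the members. They count among the endothelial-gated nuclei in the report's shares, and as venous-leaning only in the shares without these limits. They numbered 110 of 1399 endothelial-gated nuclei in WT, 152 of 1264 in BMD and 253 of 1659 in DMD. The share was 7.86% (6.51 to 9.40) for WT, 12.03% (10.28 to 13.95) for BMD and 15.25% (13.55 to 17.07) for DMD, and both mutant shares lie above the level in WT. The endocardial limit was exceeded by 71, 124 and 157 of them, the fibroblast limit by 48, 39 and 121, and the lymphatic limit by 3, 5 and 16, and a nucleus can exceed several. Scrublet called 16.4%, 3.29% and 12.25% of them doublets. Their median depth was 1183.5, 1510 and 1367 UMIs, above that of the members, and the part of depth in these shares was not tested.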

How the results depend on the processing

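No paired analysis was possible because each genotype had 1 library. A value counted as turned only where it was past 2-fold for a gene, where its interval left out 0 for a share, or where it was at least 0.2 from 0 for a list median, before the change. By this measure Scrublet doublets removed, TMM scaling, a mean over nuclei, at least 3 venous UMIs, and counts of BMD and DMD from the aggregate turned nothing, though each changed the sign of some smaller values. The other settings below changed values, and where no cause is named the cause was not tested. The settings without arterial, cardiomyocyte or endocardial UMIs, without limits on other gates, with members chosen at 500 UMIs and with aggregate counts were chosen after seeing the data.

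For the share of nuclei, barcodes with at least 1000 UMIs gave BMD minus WT of 2.12 and DMD minus WT of 2.894 percentage points, and of endothelial-gated nuclei -12.17 and -7.816 points. An endothelial share of 1% gave 0.1831 points for DMD minus WT and 0.5801 for DMD minus BMD. BMD minus WT, whose interval held 0, changed sign to -0.397 under that setting and to -0.3986 without nuclei over 5% mitochondrial UMIs. With no limit on other gates the share of nuclei gave 1.343 for BMD minus WT, 3.695 for DMD minus WT and 2.352 for DMD minus BMD. The share of endothelial-gated nuclei then gave -3.349 for BMD minus WT and, with the direction turned, 3.135 for DMD minus WT. For DMD minus BMD it gave 6.484 (2.857 to 10.08), against 3.259 (-0.0939 to 6.57) under the rule.

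Counts of genes past 2-fold are given as higher and lower for BMD over WT, DMD over WT and DMD over BMD in turn. A minimum of 100 UMIs per gene gave 30 and 29, 27 and 8, and 36 and 18, and a minimum of 20 gave 136 and 182, 130 and 62, and 170 and 89, with fewer or more genes tested. A pseudocount of 1 CPM gave 111 and 157, 97 and 58, and 163 and 71. Thinning to 500 UMIs gave 153 and 292, 120 and 99, and 254 and 124. Members without arterial UMIs gave 165 and 306, 143 and 131, and 282 and 141, and members without cardiomyocyte UMIs, 194, 60 and 133 nuclei, gave 317 and 662, 226 and 298, and 606 and 425. Free RNA subtraction gave 106 higher in BMD over WT, 43 lower in DMD over WT and 73 lower in DMD over BMD. Removing nuclei over 5% mitochondrial UMIs gave 151 lower in BMD over WT and 40 lower in DMD over WT. Members without endocardial UMIs gave 47 lower in DMD over WT and 134 higher in DMD over BMD.

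Among single genes, Gbp2 in BMD over WT turned to -0.02626 without cardiomyocyte UMIs and Gsn in DMD over BMD to -2.623 after free RNA subtraction. Subtracted levels stop at 0, so the Gsn value was set by that floor. The median of macrophage markers in BMD over WT turned to 0.2103 when thinned, 0.3211 at 20 UMIs per gene, 0.01426 with members chosen at 500 UMIs and 0.9848 without cardiomyocyte UMIs. In DMD over BMD the arterial list turned to 0.0935 when thinned and 0.02834 without arterial UMIs, and cardiomyocyte markers to 0.04508 when thinned and 0.01086 without endocardial UMIs. Without cardiomyocyte UMIs the apelin list turned to -0.4556, haemostasis to -0.02828 and vasoactive signalling to -0.1056. The mitochondrial median in DMD over WT turned to -0.1499 without nuclei over 5% mitochondrial UMIs. Of 1443 single-gene values under all alternatives, 69 changed sign, of which the 2 named here had been past 2-fold, and of 1080 list medians 103 changed sign, 12 of them from at least 0.2.

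Depth limits genes of few UMIs most, such as Ca4 with 4 UMIs in BMD, and intervals do not cover differences between animals.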
